A study of Mus musculus with 6 samples.

Results

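The retinoblastoma pocket protein genes Rb1, Rbl1 and Rbl2 were followed through single-cell RNA sequencing of germ cells from mouse fetal testes in which Rb1 had been conditionally knocked out. The 3 genes were taken by symbol as 3 of the 27998 gene rows of the deposited count table. Their measured values were not used for this, but earlier results of these data were known when they were chosen. The 3 genes were read in 6 samples and in the 5 clusters into which the authors had divided the cells. The question was which pocket protein transcripts these cells hold, and in which part of the cell cycle, when Rb1 is reduced.

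There were 3 control samples, labelled wildtype, and 3 samples labelled as Rb1 conditional knockout (cKO). All were male, at embryonic day 14.5, and of mixed C57/B6 and 129 strain background. In both groups the cells had been sorted for tdTomato, a red fluorescent reporter, and loaded on the 10x Genomics Chromium with v2 chemistry. This assay counts unique molecular identifiers (UMIs), each standing for 1 captured transcript, next to the 3′ end of the RNA. The labels give neither the Cre driver nor the deleted exon, and nothing in them says that the samples of a group came from separate animals, so p-values measure the spread between samples, which may be technical.

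The pocket proteins bind E2F transcription factors and hold down the genes needed for DNA replication until cyclin-dependent kinases phosphorylate them. The retinoblastoma protein, encoded by Rb1, binds mainly the activating E2F factors, whereas p107 (Rbl1) and p130 (Rbl2) bind mainly the repressive factors E2F4 and E2F5 and join the MuvB core in the DREAM complex. Rbl1 is itself a known E2F target and is typical of cycling cells, whereas Rbl2 is typical of resting cells. Male germ cells of the fetal testis leave the mitotic cycle around this age and arrest as prospermatogonia.

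In the GENCODE M21 annotation of GRCm38 (the assembly also called mm10), Rb1 (ENSMUSG00000022105) lies on the minus strand at chr14:73183673-73325822 with 27 exons in its longest coding transcript. Rbl1 (ENSMUSG00000027641) lies on the minus strand at chr2:157145893-157204534 with 22 exons. Rbl2 (ENSMUSG00000031666) lies on the plus strand at chr8:91070057-91123844 with 22 exons. Their longest coding transcripts are of like length (4656, 4862 and 4925 bases), and a 3′ UMI count does not grow with length, so the 3 genes were set side by side as CPM, the UMIs of a gene per 1000000 UMIs counted. The efficiency with which each 3′ end is captured was not measured. Rcbtb2 overlaps the 3′ end of Rb1 on the opposite strand and had 223 to 399 UMIs per control and 220 to 450 UMIs per cKO sample. Aktip overlaps the 3′ end of Rbl2 on the opposite strand and had 173 to 366 UMIs per sample. Whether the authors' counting used strand is not given in the sources used here, so the counts of Rb1 and Rbl2 are uncertain to that extent. Gm17233 overlaps the 3′ end of Rb1 on the same strand and has no row of its own in the deposited counts. Strand could not separate its reads from those of Rb1, and its part in the Rb1 counts was not measured.

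The promoters of Rbl1 and Rbl2 are shown because these are the other 2 genes of the family and their promoters differ in the E2F motif. Each is 250 bases before to 50 bases after the start site, from RefSeq on GRCm38.p6, written from 5′ to 3′ along the gene's own strand. The table matched 2 of the 3 genes. The search was for the E2F motif TTTNNCGC and its reverse GCGNNAAA, and capitals mark its matches.
Rbl1, chr2:157204485-157204784, minus strand: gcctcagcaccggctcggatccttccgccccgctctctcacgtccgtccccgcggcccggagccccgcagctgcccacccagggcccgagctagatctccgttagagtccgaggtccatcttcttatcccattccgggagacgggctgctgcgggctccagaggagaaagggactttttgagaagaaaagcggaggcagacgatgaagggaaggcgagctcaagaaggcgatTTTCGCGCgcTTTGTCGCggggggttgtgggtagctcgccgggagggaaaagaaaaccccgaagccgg
Rbl2, chr8:91069807-91070106, plus strand: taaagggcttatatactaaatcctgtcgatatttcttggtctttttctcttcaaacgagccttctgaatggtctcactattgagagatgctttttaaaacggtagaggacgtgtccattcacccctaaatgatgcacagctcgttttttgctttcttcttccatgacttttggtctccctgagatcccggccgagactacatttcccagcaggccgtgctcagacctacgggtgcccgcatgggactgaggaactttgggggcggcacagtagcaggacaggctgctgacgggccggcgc
The Rbl1 promoter held 2 matches that do not overlap, TTTCGCGC and TTTGTCGC, which begin 18 and 8 bases before the start site. Of 32544 distinct promoters of this length, 5.20% held at least 1 match and 0.329% held 2 or more. Among 42 genes listed as E2F targets, 33 had a promoter in the table and 18 of them (54.5%) held a match in at least 1 of their promoters. This share is per gene and the 5.20% is per promoter, so they are unlike measures. The Rbl2 promoter held no match in this window. It held 1 copy of the cell cycle homology letters TTTGAA, on the other strand and 201 bases before the start site, which 17.8% of all promoters hold on either strand. A match of letters is a description and not a measured binding site.

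After 6 of 5160 barcodes were removed for few genes, the samples held 430 to 1354 cells and 7598511 to 17323152 UMIs, with medians of 12749 to 17602 UMIs per cell. The sorted cells carried germ cell transcripts: 10 of 10 germ cell markers had UMIs, and their summed level was 8726 to 9601 CPM in the controls and 8583 to 9469 CPM in the cKO samples. The 5 Leydig cell markers summed to 0.635 to 1.45 CPM in controls and 0.768 to 1.19 CPM in cKO samples, with Hsd3b1 and Insl3 at 0 and Star, Cyp11a1 and Cyp17a1 at 61, 8 and 2 UMIs in all cells. The summed level of the 6 Sertoli cell markers was 5.85 to 25.6 CPM in the controls and 7.85 to 11.9 CPM in the cKO samples. Markers of blood cells were low but higher in every control than in every cKO sample: the 5 macrophage markers summed to 3.16 to 3.93 CPM against 1.51 to 2.97 CPM, and the 4 megakaryocyte and platelet markers to 1.15 to 52.1 CPM against 0.397 to 1.02 CPM. Their part in the levels of the pocket genes was not tested. The endothelial, stromal, myoid and erythroid lists overlapped between the groups, with erythroid markers at 9.08 to 27.1 CPM and 5.89 to 17.9 CPM. Cluster 3 stood apart in 2 control libraries. Control 3 had 25 cells there (1.85% of its cells, against 7.04% to 9.42% in the other 5 samples), with a median of 4654 UMIs per cell against 12699 to 15999. In control 2 the 4 megakaryocyte and platelet markers, led by Pf4, summed to 622 CPM in cluster 3, against at most 1.71 CPM in the other samples. Results over all cells are therefore also given without cluster 3. There were 9 barcode sequences that occurred in more than 1 library.

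Rb1 transcripts were lower in every cKO sample than in every control, Rbl1 transcripts were slightly higher in every cKO sample, and Rbl2 was rare in both groups. Over all cells, Rb1 stood at 10.3, 8.65 and 7.13 CPM in the controls and at 3.35, 3.73 and 3.64 CPM in the cKO samples, on the TMM scale of edgeR. The groups did not overlap, and the cKO samples lay closer together than the controls. Of all 11540 genes tested, 4.23% were lower in this way without overlap. Rb1 was 8.71 ± 1.60 CPM in the controls and 3.57 ± 0.196 CPM in the cKO samples (n = 3 each, SD). Without TMM factors the means were 8.67 and 3.59 CPM, the latter 41.4% of the former.

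The log2 fold change of Rb1 was -1.27 ± 0.19 (SE), with a 95% confidence interval from -1.70 to -0.84. Its unadjusted p of 7.20e-05 ranked 2 of 11540 in edgeR's quasi-likelihood test, in which 1.73% of genes were lower at an unadjusted p under 0.05. The edgeR adjusted p was 0.415 and did not pass the threshold of 0.05. None of the 3 pocket genes was called, against a background of 0% of genes called (0 of 11540 by edgeR, with 205 higher and 200 lower at an unadjusted p under 0.05). DESeq2 called 4 genes, and its adjusted p for Rb1 was 0.0250. The edgeR call was also reached without the low-count filter (adjusted p 0.0181) and without control 3 (adjusted p 0.0422), among 15 alternatives in which the adjusted p of Rb1 ran from 0.0181 to 0.9998. The UMIs behind these levels numbered 113, 67 and 119 in controls and 27, 47 and 60 in cKO samples. These UMIs come from the 3′ end and may lie outside the deleted part, so the level does not check the deletion: transcripts of an altered allele and transcripts of cells that kept the gene cannot be told apart here.

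Rbl1, which encodes p107, differed in the other direction and by less. It stood at 7.78, 7.36 and 6.65 CPM in the controls and at 8.94, 9.11 and 8.75 CPM in the cKO samples. These groups also did not overlap, as for 4.71% of all genes tested that were higher in the cKO samples. The means were 7.26 ± 0.568 and 8.93 ± 0.184 CPM (n = 3 each, SD). The log2 fold change of 0.30 ± 0.14 (SE) had an interval from -0.02 to 0.62 and an edgeR adjusted p of 0.994, so it did not pass the test. It was above 0 in all 15 alternatives, from 0.24 to 0.49, with adjusted p-values from 0.659 to 0.99996. The mean of the cKO samples minus that of the controls was -5.13 CPM for Rb1 and 1.67 CPM for Rbl1. Without cluster 3 the log2 fold changes were -1.35 ± 0.20 (SE) for Rb1, 0.31 ± 0.15 (SE) for Rbl1 and 0.07 ± 0.42 (SE) for Rbl2, with edgeR adjusted p-values of 0.288, 0.998 and 0.998.

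Rbl2, which encodes p130, was at about 1 CPM. It stood at 0.549, 1.29 and 0.959 CPM in the controls and at 0.869, 0.872 and 0.972 CPM in the cKO samples, from 6 to 16 UMIs per sample. The groups overlapped, with the controls at both ends. The log2 fold change was -0.00 ± 0.44 (SE), with an interval from -0.99 to 0.99 and an edgeR adjusted p of 0.9997. A 2-fold change in either direction lies just outside that interval, so smaller changes of Rbl2 were not detectable at this depth.

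**Figure D1:**
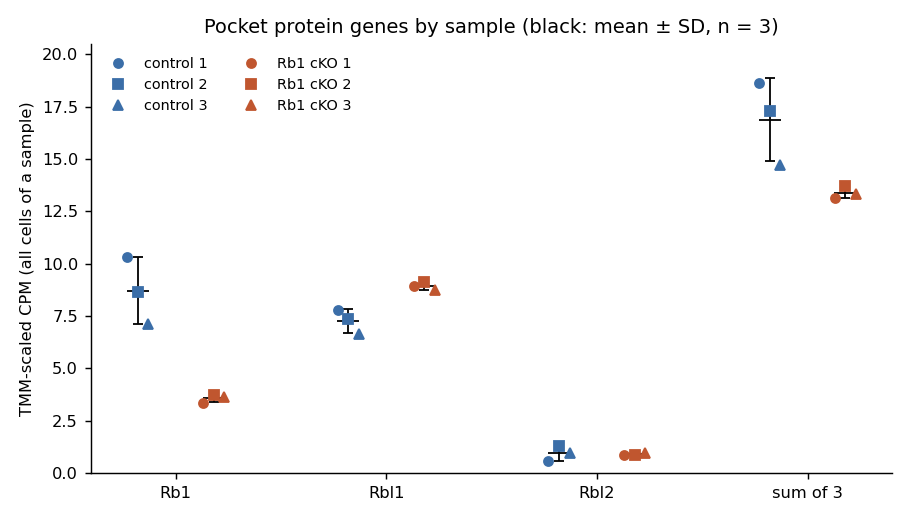
Level of each pocket protein gene and of their sum in all cells of each sample, in TMM-scaled CPM on a linear axis; coloured points are single samples and black marks give the mean ± SD of 3 samples. Rb1 was at 7.13 to 10.3 CPM in the controls and 3.35 to 3.73 CPM in the cKO samples, Rbl1 at 6.65 to 7.78 and 8.75 to 9.11 CPM, and Rbl2 near 1 CPM in both.

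The make-up of the pocket protein transcripts was different in every cKO sample from that in every control. Rb1 made up 55.4%, 50% and 48.4% of the UMIs of the 3 genes in controls and 25.5%, 27.2% and 27.3% in cKO samples. Rbl1 made up 41.7%, 42.5% and 45.1% in controls and 67.9%, 66.5% and 65.5% in cKO samples. Rb1 was thus the most counted pocket transcript in each control and Rbl1 in each cKO sample. The exact (Clopper-Pearson) 95% intervals of the Rb1 and Rbl1 shares overlapped in every control. They were 48.3% to 62.3% for Rb1 and 34.8% to 48.8% for Rbl1 in control 1. In control 2 they were 41.2% to 58.8% and 34.0% to 51.4%, and in control 3 42.0% to 54.8% and 38.8% to 51.6%. In every cKO sample they were separate, with cKO 3 at 21.5% to 33.7% and 58.8% to 71.7%.

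Rbl2 made up 2.94%, 7.46% and 6.50% in controls and 6.60%, 6.36% and 7.27% in cKO samples. The mean shares were 51.3% ± 3.67 against 26.6% ± 1.01 for Rb1, 43.1% ± 1.80 against 66.6% ± 1.24 for Rbl1 and 5.64% ± 2.38 against 6.74% ± 0.473 for Rbl2 (n = 3 each, SD). Exact two-sided permutation tests over the 20 labelings gave p = 0.1 for Rb1, 0.1 for Rbl1 and 0.8 for Rbl2 (0.15, 0.15 and 0.8 after Benjamini-Hochberg adjustment over the 3). With 3 samples against 3, a p of 0.1 is the smallest possible. Without cluster 3 the difference in share was -26.1 percentage points for Rb1 and 24.6 for Rbl1. The 3 shares add up to a whole and are not independent, so a lower Rb1 count by itself raises the share of Rbl1.

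The sum of the 3 genes was 18.6, 17.3 and 14.7 CPM in the controls and 13.1, 13.7 and 13.3 CPM in the cKO samples. The sum was lower in each cKO sample, with control 3 the nearest of the controls. The means were 16.9 ± 1.99 and 13.4 ± 0.279 CPM (n = 3 each, SD), and the exact permutation test gave p = 0.1. When each of the 4 larger clusters was given equal weight the difference was -2.52 CPM and the exact permutation p was 0.3. Without cluster 3 it was -3.56 CPM, against -3.48 CPM over all cells.

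Few cells held a UMI of any pocket gene. A UMI of at least 1 of them was found in 516 of 2565 control cells and in 459 of 2589 cKO cells. Both Rb1 and Rbl1 were seen in 31 control cells and 12 cKO cells, and no cell held more than 3 UMIs of 1 of the genes. Of the 278 control cells with Rb1, 257 held a single UMI, so fewer cells with the transcript and less transcript per cell cannot be told apart. At an equal depth of 10000 UMIs per cell, an Rb1 UMI was expected in 9.60%, 8.98% and 6.69% of control cells and in 3.39%, 3.52% and 3.52% of cKO cells. Rb1 was found in fewer cells of every cKO sample (exact permutation p = 0.1, adjusted 0.15 over 3 tests, n = 3 each).

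For Rbl1 the shares at equal depth were 7.44%, 7.66% and 6.23% in controls and 9.06%, 8.39% and 8.36% in cKO samples. They did not overlap (exact permutation p = 0.1, n = 3 each), but without thinning they did, at 7.90% to 13% and 11.4% to 13.8%. The thinning left out 274 control cells and 182 cKO cells that were shallower than 10000 UMIs. Rbl2 was expected in 0.514% to 1.34% of control cells and 0.846% to 0.980% of cKO cells. No cell type known to lack these genes was present, so the share given by free RNA was not measured.

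The 5 clusters follow in part the cell cycle. Cluster 0 (2210 cells) was led by Tcf19, Ccne1 and E2f8, and cluster 1 (1863 cells) by Cdc20, Blnk and Hmmr. Cluster 2 (640 cells) was led by the histone genes Hist2h2bb.1, Hist1h2bm and Hist1h1e. Cluster 3 (343 cells) was led by Pf4, Slc39a1 and Rpgrip1, and cluster 4 (98 cells) by Mgarp and Plk2. Cyclin E1 (Ccne1) drives entry into S phase, Cdc20 activates the anaphase-promoting complex in mitosis, and Hist1h1e encodes a linker histone. Replication-dependent histones summed to 861 CPM in cluster 2 and 96.5 CPM in cluster 1, with all samples pooled. Which genes entered the authors' clustering is not given in the sources used here, and levels in different clusters are given as descriptions and were not tested.

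Among the 3 largest clusters the pooled level of Rbl1 was highest in cluster 2 and lowest in cluster 1. With all samples pooled, Rbl1 was at 10.9 CPM in cluster 2 (exact 95% Poisson interval 8.95 to 13.2), 8.45 CPM in cluster 0 (7.46 to 9.52) and 5.98 CPM in cluster 1 (5.08 to 7.01). The intervals of clusters 2 and 0 overlap, whereas that of cluster 1 lies below both. In control 3 the order of clusters 2 and 0 was the other way round, at 6.70 CPM in cluster 2 and 7.51 CPM in cluster 0. In control cells alone Rb1 was at 9.32 CPM in cluster 0 (7.87 to 11.0), 8.45 CPM in cluster 2 (6.01 to 11.6) and 7.06 CPM in cluster 1 (5.71 to 8.64), with intervals that overlap. In cKO cells it was at 4.20 CPM in cluster 0 (3.25 to 5.33), 3.06 CPM in cluster 1 (2.16 to 4.20) and 1.86 CPM in cluster 2 (0.891 to 3.42). Levels within clusters are CPM without TMM factors, and these intervals cover counting error only.

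**Figure D2:**
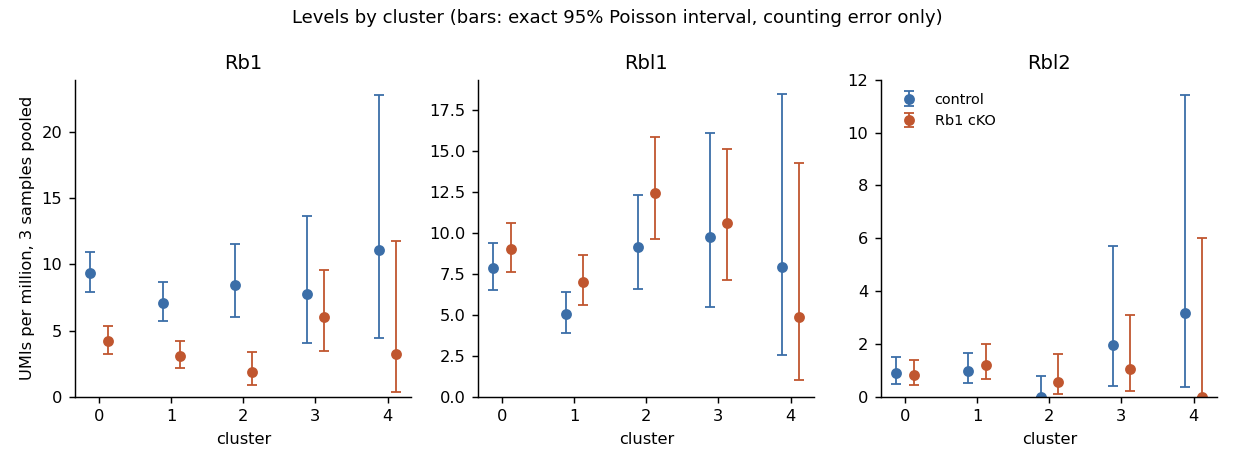
Level of each gene by cluster in CPM, with the 3 samples of a group pooled; points are pooled levels, bars are exact 95% Poisson intervals for counting error only, and the 3 axes differ in range. Rb1 of cKO cells lay below that of control cells with separate intervals in clusters 0, 1 and 2, while the intervals of Rbl1 overlapped between the groups in all 5 clusters.

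In cluster 0 Rb1 stood at 11.9, 10.9 and 7.13 CPM in the controls and at 4.50, 4.60 and 3.80 CPM in the cKO samples. The groups did not overlap, as for 4.79% of the 10091 genes tested there. The log2 fold change was -1.21 ± 0.25 (SE), which ranked 5 by p, with an edgeR adjusted p of 0.9995. Rbl1 stood at 8.97, 7.05 and 7.51 CPM in the controls and at 10.6, 8.05 and 9.05 CPM in the cKO samples. These overlapped, with a log2 fold change of 0.20 ± 0.20 (SE). In cluster 0, 0% of genes were called by edgeR and 0 by DESeq2, with 198 higher and 194 lower at an unadjusted p under 0.05. Without the low-count filter edgeR called 15, with Rb1 at an adjusted p of 0.0198.

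In cluster 1, the cluster with the most Cdc20, Rb1 stood at 9.35, 7.47 and 5.44 CPM in the controls and at 2.81, 3.61 and 2.76 CPM in the cKO samples. The groups did not overlap, as for 4.59% of the 9889 genes tested. The log2 fold change was -1.26 ± 0.30 (SE), which ranked 7 by p, with an edgeR adjusted p of 0.9997. Rbl1 stood at 4.43, 6.76 and 4.66 CPM in the controls and at 7.03, 7.70 and 6.45 CPM in the cKO samples. Control 2 lay above the lowest cKO sample, and the log2 fold change was 0.43 ± 0.26 (SE). In cluster 1, 0% of genes were called by edgeR and 0 by DESeq2, with 151 higher and 182 lower at an unadjusted p under 0.05.

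In cluster 2, the cluster richest in histone transcripts, Rb1 had 10, 5 and 24 UMIs in controls and 2, 3 and 5 UMIs in cKO samples. As levels these were 8.42, 5.64 and 9.45 CPM against 1.75, 1.50 and 2.23 CPM, without overlap, as for 4.86% of the 7895 genes tested there. Rb1 was too low for the filter in this cluster and was not among those genes. Fitted without the filter, its log2 fold change was -2.12 ± 0.53 (SE) at an edgeR adjusted p of 0.217. Rbl1 stood at 13.5, 10.1 and 6.70 CPM in the controls and at 13.1, 13 and 11.6 CPM in the cKO samples. The controls spread over both sides of the cKO samples, and the log2 fold change was 0.38 ± 0.32 (SE). It was 0.06 without control 3 and 0.65 without control 1. In cluster 2, 0% of genes were called by edgeR and 0 by DESeq2, with 149 higher and 170 lower at an unadjusted p under 0.05. Rbl2 had 0 UMIs in each control there and 1 in each cKO sample, which is at or under 3 counts over each group, so no fold is given.

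The effect of the knockout on Rb1 and Rbl1 was then tested for a difference between clusters 0 to 3, with sample as a block. For Rb1 the joint F was 2.48 with an unadjusted p of 0.0624 and an edgeR adjusted p of 0.999. Against cluster 0, its log2 fold change differed by -0.04 in cluster 1, -1.04 in cluster 2 and 0.97 in cluster 3. For Rbl1 the F was 0.302 with an edgeR adjusted p of 0.999. Neither passed the test, so a difference between the clusters was not shown. Rbl2 was too low to be tested.

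Within each of the 3 largest clusters Rb1 had a smaller and Rbl1 a larger share in every cKO sample than in every control. The mean Rb1 share went from 52.6% in the controls to 30.2% in the cKO samples of cluster 0, 54.1% and 27.0% in cluster 1, and 44.2% and 12.2% in cluster 2. The mean Rbl1 share was 42.2% and 64.3% in cluster 0, 38.9% and 62.5% in cluster 1, and 55.8% and 83.8% in cluster 2. None of these 6 pairs of groups overlapped (exact permutation p = 0.1 each, adjusted 0.129 over 9 tests, n = 3 each). The Rbl1 level itself overlapped between the groups in each of these clusters. The larger Rbl1 share there is therefore no separate measure from the lower Rb1. In controls of cluster 2 the order of Rb1 and Rbl1 differed between samples: Rb1 was at 38.5%, 35.7% and 58.5%. In the cKO samples of cluster 2 Rbl1 was at 83.3%, 86.7% and 81.3%, from 18, 30 and 32 pocket UMIs.

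**Figure D3:**
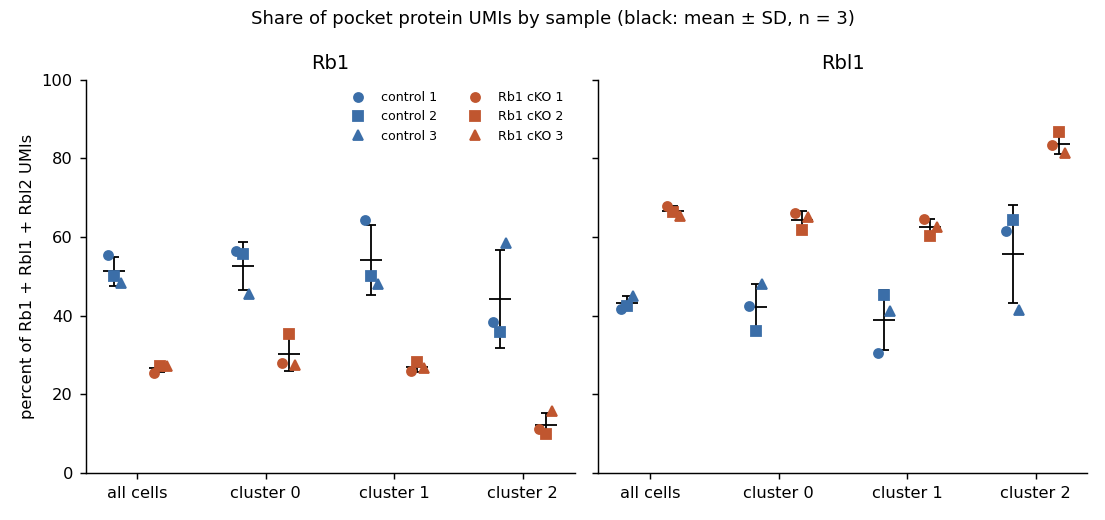
Rb1 (left) and Rbl1 (right) as a percentage of the UMIs of the 3 pocket genes, over all cells and in clusters 0 to 2; coloured points are single samples and black marks give the mean ± SD of 3 samples. Rb1 of the cKO samples lies below every control and Rbl1 above every control in each of the 4 sets of cells.

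In clusters 3 and 4 the counts were too low for the test. In cluster 3 Rb1 had 6, 6 and 0 UMIs in controls and 2, 5 and 10 in cKO samples, and Rbl1 had 7, 7 and 1 against 3, 13 and 14. The sample with 0 and 1 UMIs is control 3, which had 25 shallow cells there. No pocket gene passed the low-count filter in cluster 3. Fitted without the filter, the log2 fold change there was -0.32 ± 0.64 (SE) for Rb1, at an edgeR adjusted p of 0.970. For Rbl1 it was 0.15 ± 0.53 (SE), at an edgeR adjusted p of 0.975. In cluster 4, with 10 to 27 cells per sample, the 3 genes together had 1 to 8 UMIs per sample.

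Cycle state was also read without the clusters. Each cell was thinned to 10000 UMIs, and its UMIs of an S phase list and of a G2/M list, which hold none of the pocket genes, were each divided at the mean of the 6 sample medians (63.3 and 94.9 UMIs). This gave 4 ranges of 4698 cells, which are ranges and not cell types: 1254 cells lay near the S division and 1552 near the G2/M division. Of the cells of cluster 0, 60.8% were high in S and low in G2/M genes, and of cluster 1, 74.7% were low in S and high in G2/M genes.

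The ranges held different shares of the groups' cells. Cells low in both lists made up 21.3%, 19.7% and 23.3% of the controls and 4.40%, 9.72% and 9.74% of the cKO samples. Cells high in both made up 10.2%, 9.35% and 7.57% of the controls and 28.1%, 16.2% and 15.9% of the cKO samples. Neither pair of groups overlapped.

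Rb1 was lower in the cKO samples in each range. In cells low in both lists it stood at 15.2, 10.2 and 6.80 CPM in the controls and at 2.63, 3.38 and 5.32 CPM in the cKO samples. In cells high in both it stood at 8.58, 10.7 and 6.58 CPM against 1.80, 3.07 and 2.55 CPM. The means were 8.58 against 4.59 CPM in cells high in S genes alone and 7.72 against 3.07 CPM in cells high in G2/M genes alone. None of the 4 pairs of groups overlapped (exact permutation p = 0.1 each, adjusted 0.218 over 24 tests, n = 3 each). In cells low in both lists cKO 1 rested on 1 Rb1 UMI and cKO 2 on 4. The share of all genes without overlap was not counted in these ranges, so lack of overlap there, for Rb1 or Rbl1, has no background beside it.

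Which range separated the groups by Rbl1 level depended on the thinning depth. At 10000 UMIs it was that of cells high in G2/M genes alone. In cells high in G2/M genes alone it stood at 4.73, 5.30 and 4.01 CPM in the controls and at 7.80, 6.11 and 7.82 CPM in the cKO samples (exact permutation p = 0.1, adjusted 0.218 over 24 tests, n = 3 each). Thinned to 5000 UMIs, this range overlapped, at 5.09, 6.73 and 5.60 CPM against 7.61, 5.74 and 7.91 CPM (exact permutation p = 0.2, n = 3 each). The groups then did not overlap in cells high in both lists, at 9.35, 5.51 and 3.36 CPM against 10.8, 9.97 and 10.1 CPM (exact permutation p = 0.1, n = 3 each). At 10000 UMIs Rbl1 in cells high in both lists spread from 1.65 to 12.9 CPM in controls, with cKO samples at 9.74 to 12.1 CPM. The groups overlapped also in cells high in S genes alone, with means of 8.29 and 9.71 CPM. In cells low in both lists Rbl1 stood at 7.83, 11.6 and 10.5 CPM in the controls and at 2.63, 14.4 and 6.65 CPM in the cKO samples. The mean was lower in the cKO samples (7.88 against 9.97 CPM), but cKO 1 rested there on 1 Rbl1 UMI. Of the other cKO samples, cKO 2 lay above all controls and cKO 3 below them, so no direction is read from this range.

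The share of pocket UMIs followed the same ranges. In cells high in both lists Rbl1 made up 60.0%, 35.7% and 16.7% in controls and 81.8%, 76.0% and 75.7% in cKO samples. In cells high in G2/M genes alone it made up 34.7%, 34.9% and 35.6% in controls and 68.8%, 60.0% and 64.5% in cKO samples. In these 2 ranges and in cells high in S genes alone the groups did not overlap (exact permutation p = 0.1 each, adjusted 0.218 over 24 tests, n = 3 each). In cells low in both lists they did, at 34.0%, 47.1% and 56.9% against 33.3%, 70.8% and 50%, and cKO 1 rested there on 3 pocket UMIs. The Rb1 share overlapped there too, at 66.0%, 41.2% and 36.9% in controls and 33.3%, 16.7% and 40.0% in cKO samples (exact permutation p = 0.2, n = 3 each). Rbl2 had 0 to 7 UMIs per sample in each range and overlapped between the groups in all 4.

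**Figure D4:**
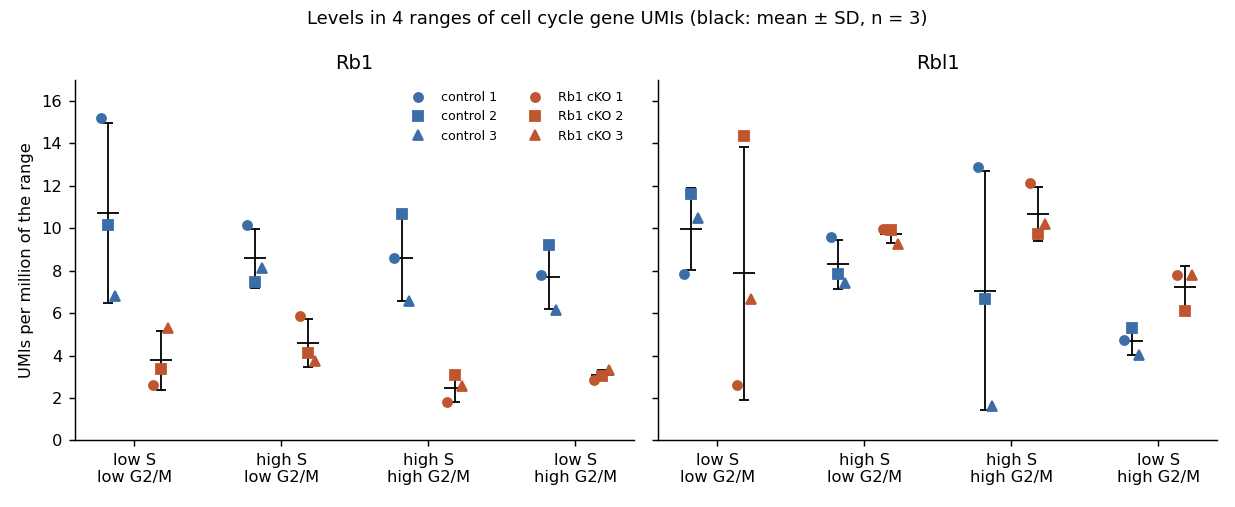
Rb1 (left) and Rbl1 (right) in CPM in 4 ranges of cells by their S and G2/M phase UMIs; coloured points are single samples and black marks give the mean ± SD of 3 samples. Rb1 of the cKO samples lies below all controls in each range, whereas Rbl1 at this depth of 10000 UMIs separates the groups in cells low in S and high in G2/M genes and overlaps in the other 3 ranges.

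The partners and targets of the pocket proteins were read from the same test, in lists. The median log2 fold change over all 11540 genes was 0.00, and no gene of any list passed the test. Of the 10 E2F and DP factors, which bind DNA for the pocket proteins, 7 were above 0 and 3 below, with a median of 0.10. Tfdp2, a DP partner and the most abundant of them, was at 52.1 ± 3.21 CPM in the controls and 52.2 ± 2.87 CPM in the cKO samples (n = 3 each, SD). E2f1, an activator, was at 33.7 ± 17.8 against 26.8 ± 4.78 CPM, a difference within the spread of the controls. Of the 9 genes of the MuvB core and its partners 6 were above 0, with a median of 0.05. The histone chaperone subunit Rbbp4 was at 175 ± 1.22 against 178 ± 9.92 CPM, and the activator Mybl2 at 125 ± 6.26 against 115 ± 2.35 CPM, without overlap.

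Upstream of the pocket proteins, 9 of 11 G1 cyclins and kinases were above 0, with a median of 0.01. Cdk4, a kinase that phosphorylates the pocket proteins, was at 437 ± 21.0 CPM in the controls and 455 ± 35.4 CPM in the cKO samples (n = 3 each, SD). Cdk2, which acts with cyclin E, was at 27.1 ± 7.05 against 34.4 ± 0.553 CPM, without overlap. Of 7 CDK inhibitors 5 were above 0, with a median of 0.20. Cdkn2a was at 86.3 ± 11.7 against 95 ± 15.7 CPM and Cdkn1c at 50.2 ± 13.2 against 64.2 ± 12.1 CPM, and both overlapped. Of 15 chromatin partners 12 were above 0, with a median of 0.07. The corepressor Sin3b was at 629 ± 43.1 against 627 ± 46.8 CPM, and Rbbp8, a DNA end resection factor that binds the retinoblastoma protein, at 45.4 ± 2.63 against 50.9 ± 1.42 CPM.

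Downstream, 41 of 42 E2F targets had a fold change above 0, with a median log2 fold change of 0.13. In 14 of these 42 the cKO samples were all higher than the controls, against 4.71% of all genes tested. The largest fold change among the more abundant targets was that of 2810417H13Rik, which encodes the PCNA-associated factor, at 35.5 ± 1.49 CPM in the controls and 53.1 ± 3.37 CPM in the cKO samples (n = 3 each, SD). Its log2 fold change was 0.58 ± 0.09 (SE). It had the smallest p of all genes and an edgeR adjusted p of 0.415. Hells, a chromatin remodeller and the most abundant target, was at 663 ± 32.8 against 742 ± 94.9 CPM, with overlap.

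All 42 S phase genes tested were above 0, with a median of 0.17, and in 23 of them the cKO samples were all higher than the controls, against 4.71% of all genes tested. Uhrf1, which maintains DNA methylation at replication forks, was at 33.4 ± 11.3 CPM in the controls and 49.3 ± 3.57 CPM in the cKO samples (n = 3 each, SD). The S phase list shares 21 genes with the E2F targets (48.8% of its own 43 and 50% of the 42 targets), and it also divided the cells into ranges. Of the 54 G2/M genes 31 were above 0 and 23 below, with a median of 0.03. Hmgb2, a chromatin protein, was at 2219 ± 167 against 2341 ± 175 CPM, and the condensin subunit Smc4 at 171 ± 5.12 against 208 ± 7.20 CPM, without overlap. All 11 replication-dependent histone genes tested, of 12 listed, were above 0, with a median of 0.30. Hist1h1b was at 93.8 ± 17.1 against 103 ± 13.3 CPM and Hist1h2ap at 20.3 ± 9.37 against 30.7 ± 7.98 CPM, both with overlap. Cells high in both the S and the G2/M list were more common in the cKO samples, as given above, and their part in the levels of these lists was not tested. The ranges were cut from the UMIs of these same S and G2/M lists. The shares of cells in them and the levels of those lists are therefore not separate measurements.

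**Figure D5:**
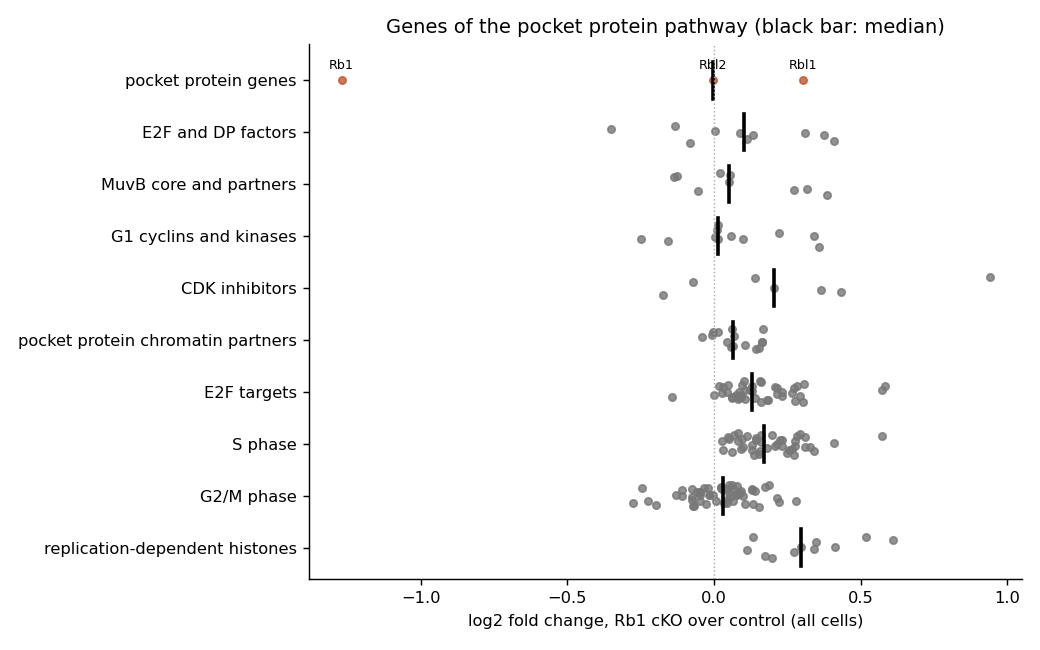
Log2 fold change of each tested gene in all cells, Rb1 cKO over control, in the lists of the pocket protein pathway; each point is a gene, placed at random height within its list, and black bars are medians. Rb1 (-1.27) stands left of all other genes plotted, and the points of the E2F targets, S phase genes and histones lie mostly right of 0.

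The genes whose levels ran most like each pocket gene were ranked by Pearson's correlation of log2(CPM + 1) over 24 sums, from the 6 samples in clusters 0 to 3, among 4949 genes that averaged 20 CPM or more. For Rbl1 these were Nup43, with r = 0.86, Sf3a2 (0.81), Prim1 (0.78), Tipin (0.78) and Ndc80 (0.77). Prim1 encodes a primase subunit, Tipin protects the replication fork, and Ndc80 is a kinetochore protein. For Rb1 they included Ppp2cb (0.80), Coq5 (0.78), Psma3 (0.76) and Ago2 (0.76). For Rbl2 they were Snx4 (0.72), 4833439L19Rik (0.71), Srsf3 (0.70), Rsu1 (0.70) and Ntpcr (0.69). Rb1 and Rbl1 had an r of -0.04 with each other. The 24 sums share libraries and clusters and rest on few pocket UMIs, so these values are descriptions.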

How the data were processed

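Single-cell RNA libraries of 3 control and 3 Rb1 cKO samples were used. The authors deposited UMI counts as whole numbers per gene and barcode, with a second deposited table that holds each barcode's sample and cluster. Cell Ranger, Seurat 3.0 and mm10 were used, per the submitters' processing notes. The annotation release is not given in the sources used here. Barcodes under 500 genes or with 10% or more mitochondrial UMIs were dropped. The labels do not say how doublets were treated; no caller was run, and an alternative left out the 5% of cells with the most UMIs in each sample.

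Counts were summed per sample over all cells and within each cluster with at least 20 cells in every sample. They were tested on the whole table with edgeR 4.0.16 in R 4.3.3 (filterByExpr, TMM, robust quasi-likelihood test, two-sided, Benjamini-Hochberg over all genes tested, threshold 0.05). The fit was also run on simulated counts, in which every gene had the same dispersion and genes as low as Rbl2 were left unchanged. That simulation is no check of the results given here. DESeq2 1.42.0 was an alternative. Library totals ran from 7598511 to 17323152 UMIs. Single values were compared by exact permutation tests with scipy 1.17.1. Intervals of levels (Poisson) and of shares (Clopper-Pearson) cover counting error only. Those of log2 fold changes come from the edgeR fit and also take in the spread between samples.

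The 3 genes, the gene lists and the tests were chosen with earlier results of these data known. Named genes are the 3 pocket genes. In each list they are genes past the threshold or, with none, the most abundant gene and, among genes that average 20 CPM or more, the one with the largest fold change. The 5 genes most like each pocket gene and the 3 leading genes of each cluster are also named, except 2 that are not reported here. A few others, such as markers and neighbouring genes, were named beside a result. Samples with the same replicate number did not deviate together (r of -0.30, 0.36 and 0.16 for numbers 1 to 3), so the numbers were not taken as pairs.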

Additional observations from a re-analysis of the deposited data

How the results depend on the processing

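The direction of the Rb1 and Rbl1 changes, over all cells and in the clusters where they were tested, held in every alternative run, and so did that of the Rb1 and Rbl1 shares and of the summed level. Rb1 over all cells passed the threshold with DESeq2 (log2 fold change -1.28), without the low-count filter (-1.27) and without control 3 (-1.41), and in cluster 0 without the low-count filter (-1.21). Leaving out 1 sample moved it from -1.41 to -1.12 over all cells, from -1.42 to -1.04 in cluster 0 and from -1.46 to -1.04 in cluster 1. For Rbl1 it gave 0.24 to 0.36 over all cells, 0.12 (without cKO 1; 0.13 without control 2) to 0.29 in cluster 0, 0.34 to 0.59 in cluster 1 and 0.06 (without control 3) to 0.65 (without control 1) in cluster 2. Thinning to 5000 UMIs reversed no direction in the cycle ranges for Rb1 or Rbl1, but changed which range did not overlap for the Rbl1 level. The Rb1 share in cells low in both lists also depended on depth. At 5000 UMIs it was 66.7%, 38.5% and 46.2% in controls and 33.3%, 32.0% and 33.3% in cKO samples. These did not overlap (exact permutation p = 0.1), and cKO 1 rested there on 6 pocket UMIs. Rbl2 had no stable direction: its log2 fold change over all cells was 0.10 in clusters with at least 20 cells per sample, 0.074 without cluster 3 and 0.077 without the 5% of cells with the most UMIs, and ran from -0.25 to 0.23 when 1 sample was left out (0.23 without control 2, 0.06 without control 3, 0.02 without cKO 1 and 0.03 without cKO 2). The difference in its share ran from -0.24, without control 1, to 2.02 percentage points. With equal cell numbers Rbl2 was filtered out and had no value.

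The number of genes called over all cells was 4 with DESeq2 and 6 without the low-count filter, and 0 to 4 when 1 sample was left out (4 without control 3). Without the low-count filter it was 15, 8, 3 and 17 in clusters 0 to 3. Leaving out 1 sample gave 0 to 2 in clusters 0, 1 and 2 (2 without control 3) and 0 to 3 in cluster 3 (3 without control 1, 2 without control 3). For the difference between clusters it gave 0 to 24 genes: 24 without control 1, 7 without control 3, 3 without cKO 1, 1 without cKO 2 and 3 without cKO 3. The cause was not tested.

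With a replicate block, Rb1 over all cells was at -1.25 (edgeR adjusted p 0.575), 0 genes were called over all cells and 1 in cluster 3. Pairing by number cannot change the mean difference of the shares and the sum. It changes only the p-value, and the smallest possible sign-flip p is 0.25. The alternatives without cluster 3 and without the cells with the most UMIs were chosen after seeing the data.

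Depth limits Rbl2 (6 to 16 UMIs per sample) throughout, and all 3 genes in clusters 3 and 4. With 3 samples a group the smallest exact permutation p is 0.1.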
